A study of Rattus norvegicus with 9 samples.

Results

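The arms of miR-140 and miR-455 were followed across transplanted and untouched rat corneas. The 4 rows rno-miR-140-3p, rno-miR-140-5p, rno-miR-455-3p and rno-miR-455-5p were taken by name from a deposited table of 765 mature miRNAs, and all 4 were present. They were chosen by name with the RPM levels of the 3 groups in these data already known, so the level differences between groups are given as a description of these 4 miRNAs and support no further statement. The libraries fall into 3 groups of 3, made from allograft corneas, isograft corneas and normal corneas. All are labelled as Wistar rats of 6 weeks, and no genetic or drug treatment is named for any of them. An isograft by name has a genetically matched donor and an allograft a differing one. The donor strain, the time since surgery, the state of the grafts and whether corneas were pooled are not stated in the labels. Whether replicate libraries stem from different animals is not stated either, and the calls made here by adjusted p-value therefore describe the scatter among 9 libraries, part of which may be technical. Libraries are named by their group and the number in their title, 12, 34 or 56.

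A miRNA gene is transcribed into a hairpin, from which the enzymes Drosha and Dicer release a duplex with one strand from the 5′ side (5p) and one from the 3′ side (3p). Usually one strand is kept in an Argonaute protein, where its seed, bases 2 to 8, pairs with target mRNAs, and the other strand is degraded. miR-140 is best known from mouse cartilage, where it is abundant and where its loss shortens the limbs. miR-455 is likewise induced during cartilage formation. In chondrocytes, expression of both genes is promoted by SOX9, the transcription factor that drives cartilage identity. The cornea holds no cartilage, but its stroma is a collagen-rich mesenchymal tissue, and the SOX9 mRNA was not measured here.

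The mature sequences are shown because the seed sets which mRNAs each arm can pair with. They were taken from RefSeq (build GRCr8), which gave a mature sequence for 3 of the 4 miRNAs, and the seed is in capitals.
rno-miR-140-3p: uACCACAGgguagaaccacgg
rno-miR-140-5p: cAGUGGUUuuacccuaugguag
rno-miR-455-3p: gCAGUCCAcgggcauauacacu
The 3 seeds differ, and 0 other mature miRNAs share any of them among the 693 distinct mature names in that RefSeq set. The closest other mature sequence was 6 base edits away from miR-140-3p and 9 away from miR-140-5p and from miR-455-3p. None of these 3 therefore has a near-identical copy in that set, which is not the deposited table.

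The hairpins are shown because the results below turn on how reads divide between the arms of one hairpin. Mature arms listed in RefSeq are in capitals, so the miR-455-5p arm is not marked in Mir455.
Mir140: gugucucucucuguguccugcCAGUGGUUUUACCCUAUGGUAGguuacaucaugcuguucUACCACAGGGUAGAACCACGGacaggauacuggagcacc
Mir455: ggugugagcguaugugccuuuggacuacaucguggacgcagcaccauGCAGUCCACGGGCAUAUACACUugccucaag
In GRCr8, Mir140 lies at chr19:52375293-52375391 on the plus strand, within the bounds of Wwp2, which encodes a ubiquitin ligase and is on the same strand. Mir455 lies at chr5:81704834-81704911 on the plus strand, within the bounds of Col27a1, a fibrillar collagen gene of cartilage, also on the same strand. Each hairpin thus sits inside a protein-coding gene, and the mRNAs of these host genes were not measured.

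Values are RPM, which divide the reads of a miRNA by a total for its library and rescale the result. Whole reads could be recovered from the size of the RPM steps, and each library total held between 11001459 and 12153889 reads. The listed miRNAs made up 26.4 to 46.3% of that total in allografts, 36.8 to 54.5% in isografts and 46.6 to 65.6% in normal corneas, so an RPM value also depends on the reads of each library that fall outside the list. Epithelial markers of the cornea were present in every library: the 5 miRNAs of a corneal epithelium list, which includes miR-184, summed to 36375 to 89200 RPM in allografts, 157828 to 191217 RPM in isografts and 268447 to 416861 RPM in normal corneas. Isograft 12 stood apart from isografts 34 and 56: over all miRNAs, the chi-square per degree of freedom between recovered reads was 810 and 807 for isograft 12 with these 2, and 70.5 between them. In bulk tissue, fewer cells of a type and less RNA per cell cannot be told apart. Of the 765 miRNAs, 281 reached 5 RPM in at least 3 libraries and were tested together, and the 4 arms of miR-140 and miR-455 all passed that filter.

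miR-140-3p was the abundant arm of its gene in every library. It stood at 1627, 1293 and 1953 RPM in allografts 12, 34 and 56, against 909, 1343 and 1369 RPM in isografts and 838, 1047 and 990 RPM in normal corneas. The lowest allograft lay above the highest normal cornea, while the isografts overlapped both other groups. The means were 1624 ± 330.0 RPM in allografts, 1207 ± 258 RPM in isografts and 958 ± 108 RPM in normal corneas (SD, n = 3 each). Among all listed miRNAs the mean ranked 31st in allografts, 43rd in isografts and 44th in normal corneas. The values rest on 9228 to 21491 reads per library.

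The 5p arm of miR-140 followed at a lower level. It measured 59.9, 64.7 and 110 RPM in the allografts, 21.6, 87.4 and 63.0 RPM in the isografts, and 48.9, 42.8 and 43.8 RPM in the normal corneas. The allografts again lay above the normal corneas without overlap. The isografts held the lowest value of all 9 libraries, in isograft 12, and the second highest, in isograft 34. Their coefficient of variation was 58.1%, against 7.31% in the normal corneas, so the isograft mean of 57.3 ± 33.3 RPM says little about the group. The mean was 78.2 ± 27.7 RPM in allografts and 45.2 ± 3.30 RPM in normal corneas (SD, n = 3 each).

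The arms of miR-455 were highest in isografts. miR-455-5p stood at 89.9, 76.8 and 103 RPM in the allografts, against 105, 222 and 186 RPM in the isografts and 40.5, 25.3 and 30.7 RPM in the normal corneas. No value of one group overlapped those of another, although allograft 56 at 103.0 RPM and isograft 12 at 104.9 RPM were close. The means were 89.9 ± 13.1 RPM in allografts, 171 ± 60.1 RPM in isografts and 32.2 ± 7.72 RPM in normal corneas (SD, n = 3 each). The ratio of means was 2.80 for allografts over normal corneas and 5.32 for isografts over normal corneas.

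miR-455-3p showed the isograft difference but not the allograft one. It stood at 41.1, 31.4 and 62.8 RPM in the allografts, against 74.3, 133 and 105 RPM in the isografts and 42.1, 29.3 and 39.97 RPM in the normal corneas. The isografts lay above both other groups without overlap, and the allografts overlapped the normal corneas. The means were 45.1 ± 16.1 RPM in allografts, 104 ± 29.3 RPM in isografts and 37.1 ± 6.90 RPM in normal corneas (SD, n = 3 each). Between 322 and 1462 reads per library lie behind these values.

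**Figure D1:**
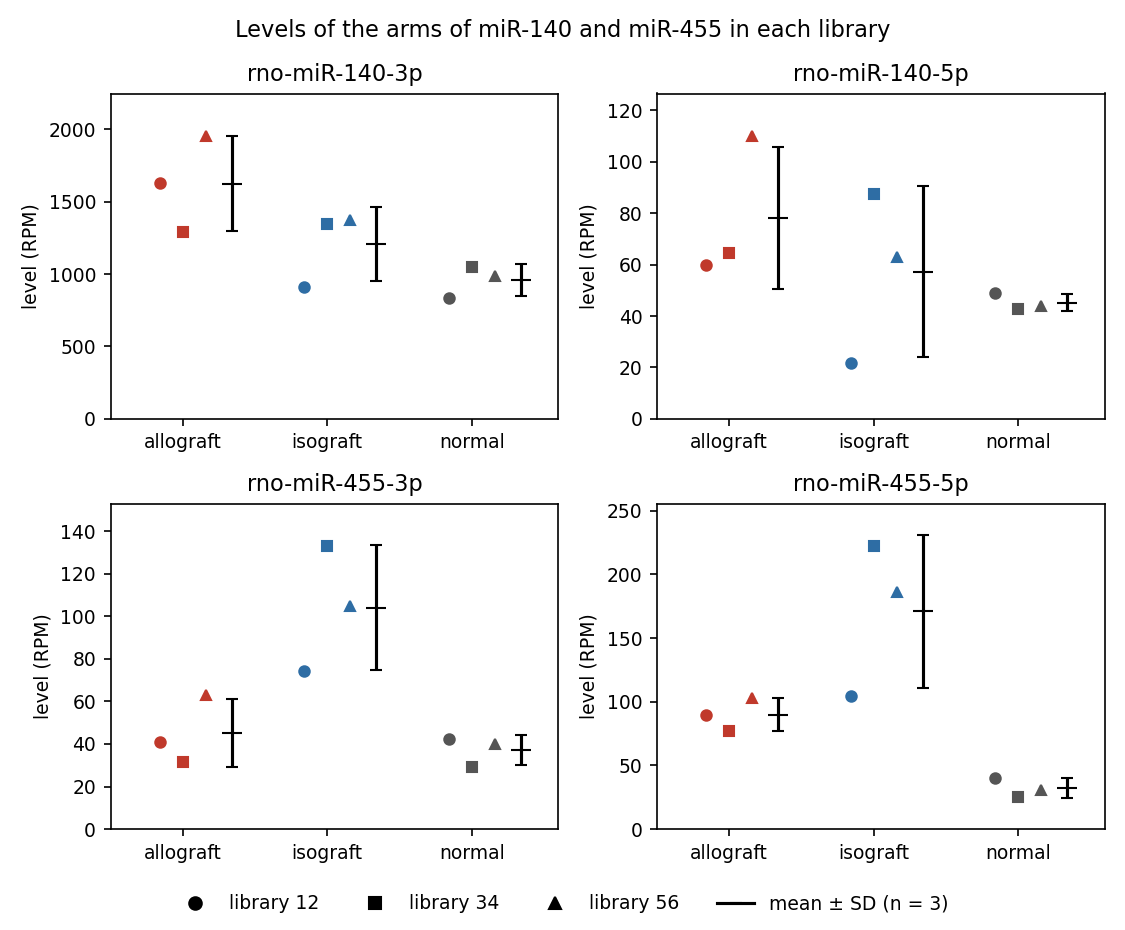
Level in RPM (vertical axes from 0) of each arm in every library, with allografts, isografts and normal corneas from left to right, symbols for the library number, and bars for the mean ± SD of 3 libraries. The miR-140 arms lie higher in all 3 allografts than in any normal cornea, miR-140-5p scatters widely in isografts, and both miR-455 arms are highest in isografts.

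The first comparison, of allografts with normal corneas, asks what differs in a graft whose donor was not matched. Transplantation and the donor mismatch cannot be told apart in it. In a moderated linear model of log2(RPM + 1) over all 9 libraries (limma, Benjamini-Hochberg adjustment over 281 miRNAs, threshold 0.05), 1 of the 4 arms passed and was higher, where 47.3% of all miRNAs tested passed in either direction and 23.1% were higher. miR-455-5p rose, with a log2 fold change of 1.47 (SE 0.39). miR-140-3p at 0.75 (SE 0.34), miR-140-5p at 0.73 (SE 0.44) and miR-455-3p at 0.23 (SE 0.40) did not pass. Because the levels were known when these miRNAs were chosen, this count and those of the other comparisons are descriptions, and nothing is read from them. The median over the 4 arms was 0.74, and over all 281 miRNAs it was -0.14. miR-140-3p passed without allograft 34, at 0.90, or without isograft 12, at 0.75, and miR-140-5p passed without isograft 12, at 0.73. Groups did not overlap, with allografts higher, for 3 of the 4 arms, where 29.9% of all miRNAs did the same.

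Whether miR-140 passed in allografts depended on how libraries were scaled. Scaled by the median of ratios, miR-140-3p had a log2 fold change of 0.87 (SE 0.14) and miR-140-5p one of 0.85 (SE 0.26), and both passed. Counts of recovered reads in edgeR and DESeq2, which scale libraries in a similar way, also passed both arms, at 0.89 and 0.88 for miR-140-3p. Leaving out miR-184, the most abundant miRNA, from the total gave 0.31 for miR-140-3p and 0.30 for miR-140-5p, neither past the threshold. With the sum of listed miRNAs as the total, the values were 1.47 and 1.45, both past the threshold. miR-455-3p passed under that scaling too, at 0.95. The sign for both miR-140 arms and for miR-455-5p was positive under each of these scalings, and that of miR-455-3p was negative, at -0.19, without miR-184. These scalings moved the median of all miRNAs from -0.14 to -0.02 by the median of ratios, to -0.56 without miR-184 and to 0.55 with the sum of listed miRNAs.

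The comparison of isografts with normal corneas asks the same of a graft from a matched donor. Here 2 of the 4 arms passed the same test and both were higher, where 21.4% of all miRNAs tested passed in either direction and 16.7% were higher. miR-455-5p rose by a log2 fold change of 2.33 (SE 0.39) and miR-455-3p by 1.44 (SE 0.40). The rise of miR-455-3p was not past the threshold without normal 34, at 1.28 (SE 0.47). miR-140-3p at 0.32 (SE 0.34) and miR-140-5p at 0.13 (SE 0.44) did not pass, and miR-140-5p turned to -0.15 without miR-184 in the total. With the sum of listed miRNAs as the total, miR-140-3p passed at 0.62. Over the 4 arms the median was 0.88, and over all miRNAs it was 0.05. The miR-455 arms were also those whose groups did not overlap, where 22.4% of all miRNAs were higher without overlap.

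The comparison of allografts with isografts sets the 2 kinds of graft side by side. Of the 4 arms 1 passed and was lower, where 34.5% of all miRNAs tested passed in either direction and 21% were lower. miR-455-3p fell by 1.21 on the log2 scale (SE 0.40) in allografts. That call was lost without allograft 12, allograft 34, isograft 34 or isograft 56, at values of -1.17, -0.98, -1.01 and -1.18. miR-455-5p stood at -0.86 (SE 0.39), short of the threshold, and passed without isograft 12 at -1.18 (SE 0.37). miR-140-5p at 0.60 (SE 0.44) and miR-140-3p at 0.43 (SE 0.34) stood on the other side of 0 and did not pass. Both miR-455 arms were lower without overlap of the groups, as were 22.4% of all miRNAs. The direction of each arm was the same under the 3 other scalings, but the calls were not: all 4 arms passed by the median of ratios, in edgeR and in DESeq2, with miR-140-3p at 0.64, miR-140-5p at 0.81 and miR-455-5p at -0.65 by the median of ratios, and 3 passed with the sum of listed miRNAs. All miRNAs had a median of -0.29, which these scalings moved to values between -0.44 and 0.10.

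**Figure D2:**
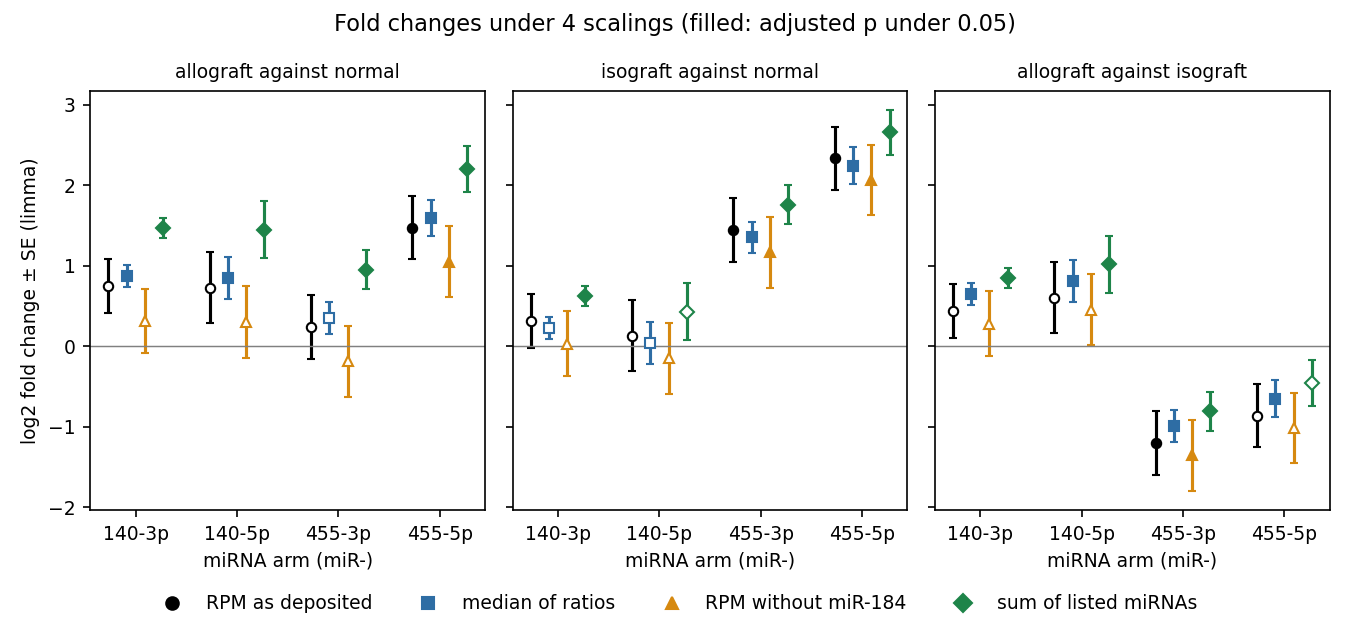
Log2 fold change (vertical axis, with SE bars) of each arm in 3 comparisons under 4 ways of scaling the libraries; filled symbols are past an adjusted p of 0.05. The miR-455-5p arm is above 0 and filled in both comparisons with normal corneas, and the miR-140 arms change between open and filled symbols in allografts.

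The ratio of the genes to each other does not depend on library scaling, because both are counted in the same library. With the arms summed, there were 7.76, 7.97 and 8.03 miR-455 reads per 100 miR-140 reads in allografts 12, 34 and 56, 19.3, 24.8 and 20.3 in the isografts, and 9.32, 5.004 and 6.84 in the normal corneas. Every isograft lay above every library of the other groups, and the allografts fell inside the range of the normal corneas. The means were 7.92 ± 0.144 in allografts, 21.5 ± 2.95 in isografts and 7.05 ± 2.16 in normal corneas (SD, n = 3 each). This ratio was chosen after the values were seen and has no test. Since ligation and amplification favour some small RNAs over others, it compares libraries and not the true abundance of the genes.

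**Figure D3:**
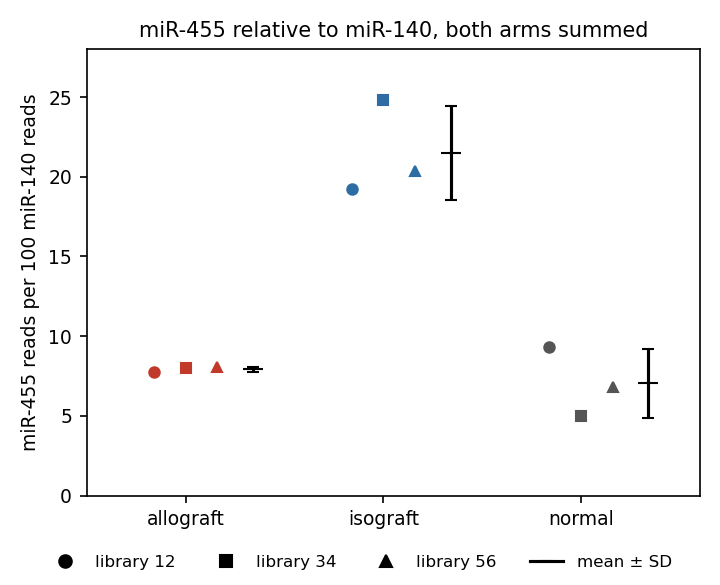
Reads of miR-455 per 100 reads of miR-140, both arms summed, in each library (vertical axis from 0; groups from left to right are allograft, isograft and normal; bars are mean ± SD of 3 libraries). The 3 isografts sit between 19.3 and 24.8, above the other 6 libraries, which lie between 5.004 and 9.32.

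The arms of a hairpin come from the same transcript, and their balance is likewise free of library scaling. For miR-140 the 3p arm held nearly all reads, with 96.5, 95.2 and 94.7% in allografts 12, 34 and 56, 97.7, 93.9 and 95.6% in the isografts, and 94.5, 96.1 and 95.8% in the normal corneas. The groups overlapped throughout. The means were 95.5% ± 0.912 in allografts, 95.7% ± 1.90 in isografts and 95.4% ± 0.843 in normal corneas (SD, n = 3 each). Isograft 12 had the highest share (95% exact binomial interval 97.4 to 98.0%) and isograft 34 the lowest (93.5 to 94.3%). The shares rest on 9767 to 22702 reads of both arms.

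The reads of miR-455 were divided more evenly between its arms. The 3p arm held 31.4, 29.1 and 37.9% of miR-455 reads in allografts 12, 34 and 56, 41.5, 37.4 and 36.0% in the isografts, and 51.0, 53.7 and 56.6% in the normal corneas. The 3p arm was thus the smaller one in all 6 grafts. It was slightly the larger one in the normal corneas, where the 95% exact binomial intervals of normal 12 (47.7 to 54.3%) and normal 34 (49.6 to 57.7%) include equal shares. Every graft lay below every normal cornea, and the allografts overlapped the isografts. The closest libraries across that gap were isograft 12 (95% exact binomial interval 39.4 to 43.6%) and normal 12. The intervals reflect counting error alone: without molecular identifiers, several reads can come from 1 RNA molecule.

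The mean 3p share of miR-455 was 32.8% ± 4.58 in allografts, 38.3% ± 2.83 in isografts and 53.7% ± 2.78 in normal corneas (SD, n = 3 each). The difference of means was -21.0 percentage points for allografts minus normal corneas, -15.4 points for isografts minus normal corneas and -5.53 points for allografts minus isografts. The shares are made from the same reads as the levels known when these miRNAs were chosen, so their differences are a description with no test to support them.

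**Figure D4:**
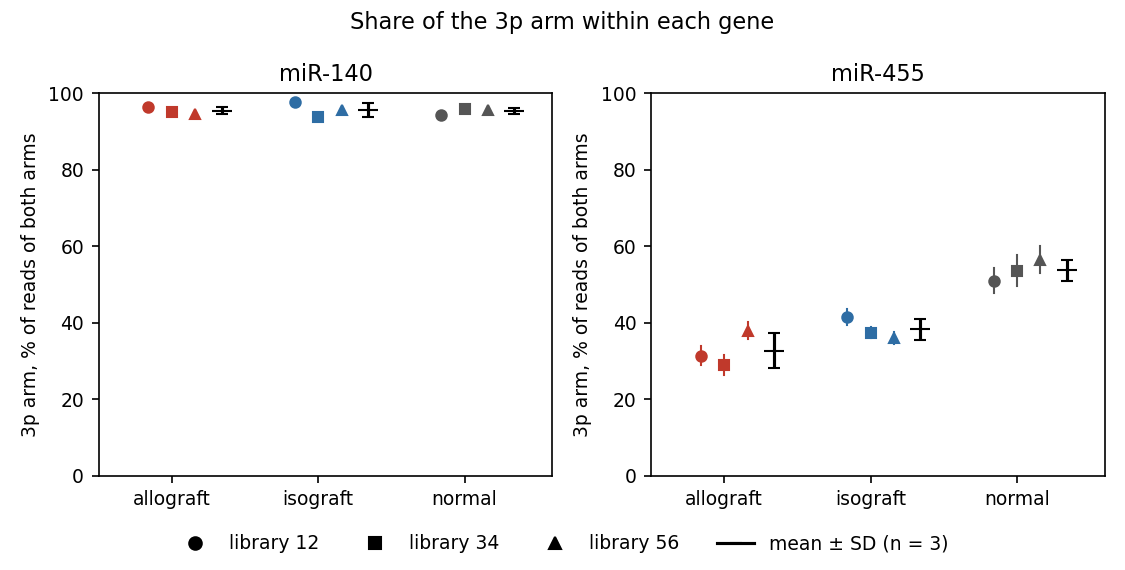
Reads of the 3p arm as a percentage of the reads of both arms of miR-140 (left panel) and miR-455 (right panel) in each library, with 95% exact binomial intervals as thin lines and the mean ± SD of 3 libraries as bars. The miR-140 share stays between 93.9 and 97.7%, and the miR-455 share lies between 29.1 and 41.5% in the grafts and between 51.0 and 56.6% in normal corneas.

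To place these shares, the balance was computed for all 62 miRNA genes with both arms among the 281 tested, as the log2 ratio of 3p to 5p after adding 1 RPM to each. miR-455 differed by -1.24 between allografts and normal corneas, the fourth largest difference in size, where the median size was 0.37. In isografts it differed by -0.89, the fifth largest, where the median size was 0.23. Groups did not overlap, with the graft lower, for 32.3% of the 62 genes in allografts and for 21% in isografts. The balance of miR-140 differed by 0.02 and 0.19 in the same comparisons, with overlap. This set of genes was chosen after the miR-455 shares were seen.

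miR-140 and miR-455 did not follow one profile over the 9 libraries. The profiles were compared by the root mean square difference of log2(RPM + 1) after subtracting each miRNA's own mean, so that a small value means a similar course. Between the arms of one gene it was 0.40 for miR-140, with 50 of 280 miRNAs closer to miR-140-3p than its own 5p arm. For miR-455 it was 0.55, with 38 closer to miR-455-3p than its 5p arm. Between the genes it ran from 0.72 (miR-140-3p with miR-455-3p) to 0.96 (miR-140-5p with miR-455-5p). Seen from miR-140-3p, 157 and 193 of the other 280 miRNAs were closer to it than miR-455-3p and miR-455-5p were.

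The profiles nearest to each arm were different ones. For miR-140-3p they were miR-1839-5p at 0.17, miR-106b-3p at 0.18 and miR-25-3p at 0.19, where the median over all miRNAs was 0.66. For miR-140-5p they were miR-186-5p at 0.23, miR-20a-5p at 0.23 and miR-103-3p at 0.26. All 6 have a log2 fold change between 0.23 and 0.90 in allografts over normal corneas. For miR-455-3p the nearest were miR-322-3p at 0.22, miR-503-3p at 0.28 and miR-199a-5p, a miRNA of mesenchymal cells, at 0.29. For miR-455-5p they were miR-214-3p, also mesenchymal, at 0.25, miR-542-3p at 0.27 and miR-592 at 0.29, the last at under 10 RPM in each group. These 6 were all higher in isografts than in allografts and in normal corneas by their group means. The 9 libraries share their groups and their total depth, so likeness is a description only.

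A list of 14 mesenchymal and stromal miRNAs gives the setting for the label of these genes as mesenchymal. This list and those below were chosen with earlier results of these data known. Their counts and medians are therefore descriptions, and nothing is read from them. The list counts both arms of some genes, such as miR-143, as separate members. Of its 11 tested members 7 were higher and 0 lower in allografts against normal corneas, with a median of 1.83, where 23.1% of all miRNAs were higher and their median was -0.14. In isografts against normal corneas 8 were higher and 0 lower, with a median of 2.90, where 16.7% of all miRNAs were higher and their median was 0.05. In allografts against isografts 0 were higher and 3 lower, with a median of -0.90, where 21% of all miRNAs were lower and their median was -0.29. Among its members, miR-143-3p, of fibroblasts and smooth muscle, had 7130 RPM in allografts, 11688 RPM in isografts and 1371 RPM in normal corneas. miR-214-3p had 98.3 RPM in allografts, 201 RPM in isografts and 40.4 RPM in normal corneas. Other members had their lowest mean in allografts: miR-199a-3p had 5661 RPM in allografts, 10850 RPM in isografts and 6008 RPM in normal corneas, and miR-152-3p had 1215 RPM in allografts, 2431 RPM in isografts and 1759 RPM in normal corneas. miR-22-3p differed little, at 335 RPM in allografts, 364 RPM in isografts and 336 RPM in normal corneas.

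A second list held 18 miRNAs tied to cartilage or SOX9 in earlier work, among them miR-145-5p, which targets Sox9 mRNA. Of its members 16 were matched by name and 11 were tested, 4 of which are also in the mesenchymal list. In allografts against normal corneas 4 were higher and 2 lower, with a median of 0.26, where 47.3% of all miRNAs passed in either direction. In isografts against normal corneas 4 were higher and 1 lower, with a median of 0.74, where 21.4% of all passed. In allografts against isografts 1 was higher and 2 lower, with a median of -0.13, where 34.5% of all passed. miR-145-5p rose by 1.83 (SE 0.41) in allografts and 3.18 (SE 0.41) in isografts over normal corneas. miR-101b-3p, another miRNA of this list, rose by 1.46 (SE 0.37) in allografts, and its 0.99 (SE 0.37) in isografts did not pass. miR-138-5p fell by 1.78 (SE 0.36) in allografts and by 1.76 (SE 0.36) in isografts. miR-675-5p, from the H19 transcript, was listed at 0 in all 3 allografts and at no more than 0.273 RPM in any other library.

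Markers of other cell types did not all order the groups in the same way, and the red blood cell sums overlapped among all groups. A list of 5 leukocyte miRNAs, including miR-142-3p and miR-223-3p, summed to 2293 to 3997 RPM in allografts. The sum was 156 to 327 RPM in isografts and 46.0 to 56.7 RPM in normal corneas. All 5 passed as higher in each of the 3 comparisons. Over all miRNAs, 23.1% were higher in allografts and 16.7% in isografts against normal corneas. In allografts against isografts 34.5% of all miRNAs passed in either direction. The endothelial miR-126a arms summed to 2955 to 4874 RPM in allografts, 2095 to 6150 RPM in isografts and 346 to 857 RPM in normal corneas. Both arms were higher in each kind of graft than in normal corneas, where the same 23.1% and 16.7% of all miRNAs were higher. Red blood cell miRNAs, 4 in the list, summed to 18.5 to 1068 RPM in allografts, 14.0 to 181 RPM in isografts and 82.4 to 343 RPM in normal corneas. The upper end in allografts came from allograft 34 alone, where miR-486 stood at 946 RPM. In allografts 12 and 56 miR-486 stood at 15.3 and 13.8 RPM. Of the 2 tested, miR-451-5p was lower than in normal corneas, by -2.61 in allografts and -2.73 in isografts (SE 0.88 each). miR-486 did not pass in either. The 5 muscle miRNAs summed to 25.7 to 34.6 RPM in allografts, 49.6 to 89.7 RPM in isografts and 202 to 285 RPM in normal corneas. The 2 tested were lower in each kind of graft than in normal corneas. Against normal corneas, 47.3% of all miRNAs passed in either direction in allografts and 21.4% in isografts. None of these markers was at 0 throughout a group, and their part in the levels of miR-140 and miR-455 was not tested.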

How the data were processed

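Trizol was used for extraction and an Illumina TruSeq kit for library construction, per the labels. The authors computed and deposited RPM values for 9 libraries, and 0 columns were left unmatched. The submitters' processing notes name bcl2fastq, BWA and the build rn6. Trimming, the miRNA annotation and the treatment of multiply matching reads are not given in any source used here.

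Dividing by each library's RPM step gave whole reads for 100% of values within 0.1 read. A count of 3 reads corresponds to 0.247 to 0.273 RPM. Within groups, no pair of libraries agreed within counting noise (chi-square over its degrees of freedom 70.5 to 810), so none looked like a duplicate deposit; whether they are separate animals is not shown by this.

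The filter asked for 5 RPM or more in 3 or more libraries. limma 3.58.1 in R 4.3.3 was fitted with a mean-variance trend to log2(RPM + 1), so fold changes of low miRNAs are understated. The fit has 6 residual degrees of freedom. Exact permutation tests of the arm shares over the 3 groups, planned at the start, gave an adjusted p of 0.0857 for miR-455 and 1.0 for miR-140 over 8 tests. Neither passed. The remaining tests compared 2 groups, where the smallest possible p was 0.1, so none of them could pass. They still entered the adjustment. That neither passed does not show equal shares, and these tests support nothing here. On recovered reads, edgeR 4.0.16 and DESeq2 1.42.0 were run as alternatives, beside other pseudocounts, filters and scalings, fits of 2 groups, a block on the title number, and each library left out. Every arm was named, with fixed lists and the 3 nearest profiles of each arm. The members and lists were chosen with earlier results of these data known.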

Additional observations from a re-analysis of the deposited data

How the results depend on the processing

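Each fold change and each count was recomputed under 22 alternatives and each arm share under 11. The 2 calls of miR-455-5p against normal corneas held in all 22. With the median of ratios, the sum of listed miRNAs, edgeR and DESeq2, in that order, miR-140-3p in allografts against normal corneas had log2 fold changes of 0.87, 1.47, 0.89 and 0.88 and miR-140-5p of 0.85, 1.45, 0.87 and 0.86, all past the threshold. Against isografts they were 0.64, 0.84, 0.66 and 0.64 for miR-140-3p and 0.81, 1.02, 0.78 and 0.77 for miR-140-5p, again all past it. In allografts against isografts miR-455-5p passed at -0.65 with the median of ratios, -0.63 in edgeR and -0.65 in DESeq2. With the sum of listed miRNAs, miR-455-3p in allografts passed at 0.95 and miR-140-3p in isografts at 0.62, both against normal corneas. Without miR-184, miR-455-3p in allografts turned to -0.19 and miR-140-5p in isografts to -0.15, neither of them called. The causes were not tested.

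Of the 4 arms, 3, 4, 3 and 3 passed in allografts against normal corneas and 4, 3, 4 and 4 in allografts against isografts under those 4 settings, in place of 1 each. Over all miRNAs, 133 passed in allografts against normal corneas, 60 in isografts against normal corneas and 97 in allografts against isografts. A filter at 50 RPM, which tests fewer miRNAs, gave 63, 30 and 44. Isografts against normal corneas had 114 by the median of ratios, 120 by the sum of listed miRNAs, 114 in edgeR and 119 in DESeq2. Allografts against isografts had 169 by the median of ratios, 163 in edgeR and 171 in DESeq2.

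Leaving out 1 library gave, for allografts against normal corneas, 0.60 to 0.90 for miR-140-3p (past the threshold without allograft 34 at 0.90 or without isograft 12 at 0.75), 0.46 to 0.89 for miR-140-5p (past it without isograft 12 at 0.73), -0.028 to 0.46 for miR-455-3p (-0.028 without allograft 56) and 1.31 to 1.64 for miR-455-5p. For isografts against normal corneas the ranges were 0.21 to 0.51, -0.28 to 0.71 (-0.28 without isograft 34, -0.05 without isograft 56), 1.25 to 1.66 and 2.11 to 2.65 in the same order of arms. For allografts against isografts they were 0.24 to 0.59, 0.02 to 1.01, -1.47 to -0.98 and -1.18 to -0.64. In these 3 comparisons 1 to 3, 1 to 2 and 0 to 2 arms passed, and 101 to 164, 42 to 80 and 52 to 147 of all miRNAs; the 52 came without allograft 34 and the 147 without isograft 12.

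The group means of the miR-455 3p share differed by 19.1 to 23.5 points without any 1 library, and those of miR-140 by 0.289 to 1.21 points. Whether the title numbers pair the samples is not stated in the labels and could not be decided here. Correlations of deviations from group means ran from -0.51 to 0.56 between libraries of one number. Between libraries of differing numbers they ran from -0.72 to 0.60. With 3 libraries per group, such deviations cannot tell pairing from its absence. With the number as a replicate block the largest difference of means of the miR-455 share is 21.0 points by construction. The block leaves the group means as they are, so this value could not have differed and says nothing about pairing. No fold change of the 4 arms changed its call under the block. A fold change that did not pass is not shown to be 0.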
